A study of Mus musculus with 6 samples.

Results

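Immediate early genes are switched on within minutes of a strong stimulus, without new protein synthesis, and their mRNAs are short-lived. In neurons, calcium entry during synaptic activity induces them through kinases that act on the transcription factors CREB, SRF and MEF2 already bound near their start sites. Many of the same genes also respond to growth factors and injury in glia and endothelial cells, whereas Npas4 is known for its dependence on calcium entry in neurons. The 10 genes described here were taken by name from the deposited counts, namely the AP-1 subunits Fos, Fosb, Fosl2 and Junb, the zinc-finger factors Egr1 and Egr2, the bHLH-PAS factor Npas4, the nuclear receptor Nr4a1, the nuclear protein gene Ier2, and Arc, which encodes a protein of the postsynapse. They are 10 of 21899 genes in the counts, and all 10 passed the filter on low counts that left 14956 genes for testing.

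The samples were thalamus of male wild-type C57BL/6J mice, bought at 8 to 10 weeks of age, of which 3 were RC and 3 were RN. All 6 mice had received 50 Gy of gamma rays to the left thalamus and, 2 weeks later, 2 µL of AAV9 in the thalamus, and the thalamus was collected at 6 weeks after the dose. The RC virus, GFAP104::tdTomato, carried a red fluorescent protein alone, and the RN virus, GFAP104::mND1-tdTomato, carried mouse NeuroD1 with it. The GFAP104 promoter favours astrocytes, but the sequenced tissue was not sorted by infected cells, and neither group was free of radiation or virus. A bulk library sums every cell in the tissue, so that more cells of a type and more RNA per cell cannot be told apart. The time between handling of a mouse and freezing of its tissue, to which these short-lived mRNAs respond, is not given in the sources used here.

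Library totals ran from 16561663 to 18657015 counts, and no pair of libraries was a repeat of the other, with chi-square values of 16.4 or more per degree of freedom over all genes. Neurod1, the gene of the virus, was at 4.71 to 5.44 CPM (counts scaled to 1000000 per library, after TMM scaling) in RC and 50.9 to 91.5 CPM in RN, which checked the labels. All 8 markers of thalamic neurons were detected, and none of the 10 lists of cell type markers held a gene at 0 in all mice.

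Promoter sequences of 4 of the genes are shown because their counts fell into contrasting patterns between the groups. In the RefSeq promoter table (build GRCm38.p6, used here for sequence only) 7 of the 10 genes had an entry, and the 250 bases before each start were searched on both strands for the cAMP response element TGACGTCA, for its core CGTCA (which the full element also holds), for the CArG box that SRF binds, for the AP-1 site TGANTCA, for the EGR site GCGNGGGCG, and for the E-box CAGATG that NeuroD1 can bind. Egr1, Arc and Ier2 had no entry and were not searched. Npas4, Fos and Fosb were higher in every RN mouse, and Nr4a1 was not. The stretches lie at chr19:4989972-4990221 (minus strand) for Npas4, chr12:85473640-85473889 (plus strand) for Fos, chr7:19310046-19310295 (minus strand) for Fosb, and chr15:101266596-101266845 (plus strand) for Nr4a1. They are written 5′ to 3′ and end at the base before the start, with matches in capitals.
Npas4: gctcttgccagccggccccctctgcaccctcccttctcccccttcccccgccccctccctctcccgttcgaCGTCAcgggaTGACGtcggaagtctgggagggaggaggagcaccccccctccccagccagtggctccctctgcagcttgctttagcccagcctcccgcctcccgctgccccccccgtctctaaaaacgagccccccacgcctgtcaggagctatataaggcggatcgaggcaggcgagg
Fos: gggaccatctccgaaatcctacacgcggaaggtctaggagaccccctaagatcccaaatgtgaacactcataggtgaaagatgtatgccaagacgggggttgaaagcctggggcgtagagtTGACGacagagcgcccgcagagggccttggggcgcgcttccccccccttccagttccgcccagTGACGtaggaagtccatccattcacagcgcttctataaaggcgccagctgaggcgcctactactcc
Fosb: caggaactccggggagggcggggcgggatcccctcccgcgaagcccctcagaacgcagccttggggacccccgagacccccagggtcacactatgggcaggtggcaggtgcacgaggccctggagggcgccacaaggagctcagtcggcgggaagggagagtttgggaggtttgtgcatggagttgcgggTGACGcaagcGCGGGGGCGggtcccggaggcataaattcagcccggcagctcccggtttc
Nr4a1: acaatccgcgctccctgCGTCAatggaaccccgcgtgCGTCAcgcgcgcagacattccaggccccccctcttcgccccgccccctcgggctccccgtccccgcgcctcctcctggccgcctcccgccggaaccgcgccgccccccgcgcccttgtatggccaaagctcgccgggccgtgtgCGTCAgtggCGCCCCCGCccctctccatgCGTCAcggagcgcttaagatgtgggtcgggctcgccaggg

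The core CGTCA occurred in the promoters of Npas4, Fos, Fosb, Nr4a1 and Junb and in 3 of the 5 partly overlapping promoters listed for Egr2, against 17.8% of the 32851 promoters in the table. Nr4a1 had 4 such matches, Npas4 and Fos had 2 each, and Fosb had 1. The EGR site was found in Fosb, Fosl2 and Nr4a1, against 4.70% of all promoters. The CArG box was found in 4 of the Egr2 promoters, against 1.47%. In 3 of these, the same that held CGTCA, the windows overlapped and the matches were the same sites. The E-box CAGATG, which 14.4% of the promoters hold, had no match in these windows, nor did the full cAMP response element (1.55%) or the AP-1 site (6.75%). These matches describe letters in a short window.

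Npas4, Fosb, Fos and Egr1 were higher in each RN mouse than in any RC mouse, with fitted differences from 3.72-fold for Npas4 to 1.40-fold for Egr1. The groups overlapped for Fosl2, Egr2, Arc, Junb, Ier2 and Nr4a1. None of the 10 genes was called by edgeR's quasi-likelihood test, for which a call needed a 2-fold difference together with a Benjamini-Hochberg adjusted p below 0.05, and 0.0735% of all tested genes were called. At an unadjusted p under 0.05 the test gave 4 genes higher and 0 lower, against 5.44% and 6.33% of all tested genes. The 4 genes without overlap compare with 8.18% of all tested genes that lay higher in RN without overlap. DESeq2's Wald test called Npas4 and Fosb, against 0.61% of its genes called higher, and without the fold threshold also Fos and Egr1, against 1.38%. Fitted values were above 0 for 9 of the 10 genes, against 50.8% of all tested genes, and their median log2 fold change was 0.31, against 0.00372 over all.

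**Figure D1:**
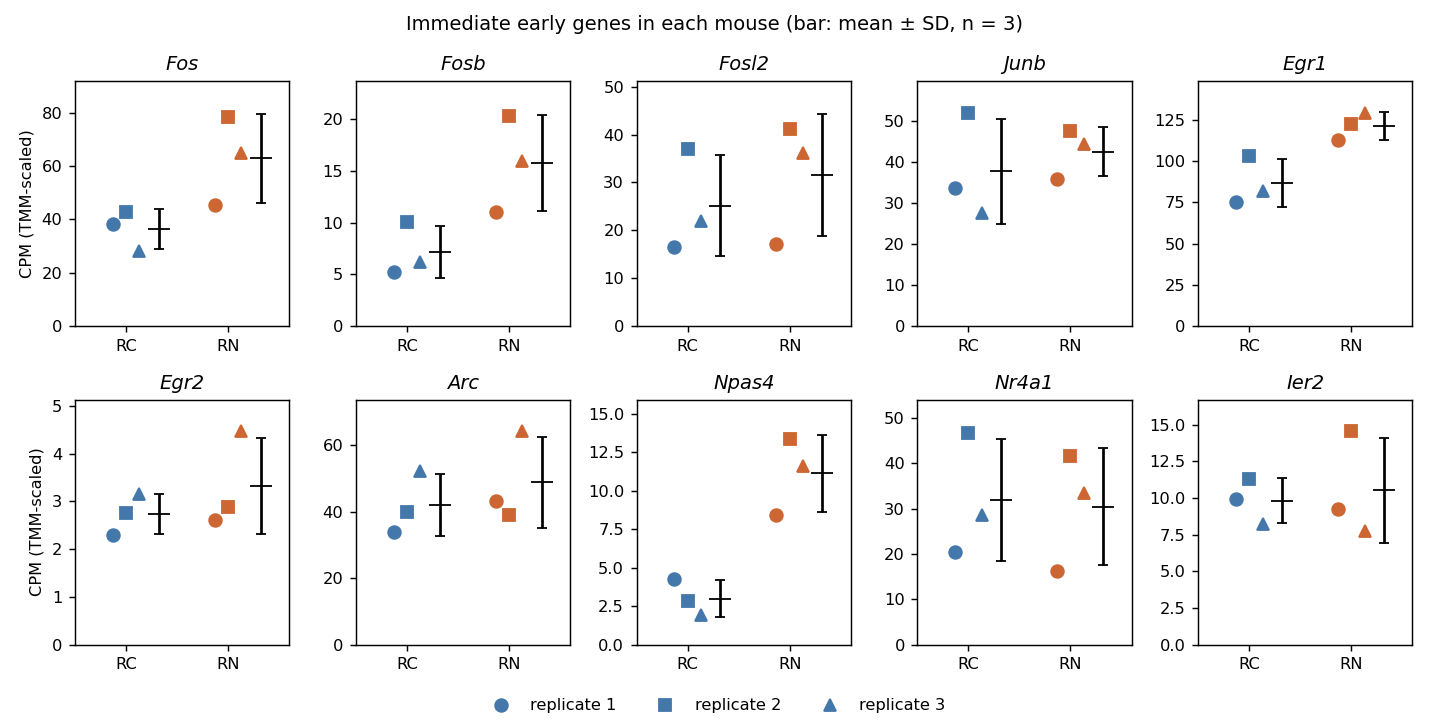
CPM (TMM-scaled, linear axis from 0) of the 10 genes in each mouse, with RC in blue, RN in orange, the marker shape giving the replicate number and the black bar the mean ± SD of 3 mice. The RN points of Npas4, Fosb, Fos and Egr1 lie above all their RC points, and in the other 6 genes the groups overlap.

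Among the AP-1 subunits, Fos proteins pair with Jun proteins to bind DNA. Fos (ENSMUSG00000021250) was at 38.1, 42.9 and 28.2 CPM in RC replicates 1, 2 and 3 and at 45.3, 78.4 and 64.7 CPM in RN replicates 1, 2 and 3. The lowest RN mouse, replicate 1, was just above the highest RC mouse, while the other RN mice stood well apart. The mean ± SD over 3 mice was 36.4 ± 7.51 CPM for RC against 62.8 ± 16.61 CPM for RN, which gave a log2 fold change of 0.79 (SE 0.217, Benjamini-Hochberg adjusted p = 0.197 in edgeR's quasi-likelihood test).

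Fosb (ENSMUSG00000003545), whose truncated product ΔFosB is known to build up with repeated activity, was at 5.22, 10.04 and 6.19 CPM in RC and at 11.1, 20.3 and 15.9 CPM in RN. Every RN mouse was above its RC counterpart of the same number by a similar ratio, with log2 differences of 1.07, 1.01 and 1.35. The fitted log2 fold change was 1.14 (SE 0.297, edgeR adjusted p = 0.176). Isoforms of Fosb were not separated by the counts.

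Fosl2 (ENSMUSG00000029135), which encodes Fra-2, was at 16.5, 36.9 and 21.9 CPM in RC and at 17.1, 41.2 and 36.1 CPM in RN. The replicate 1 mice were lowest and the replicate 2 mice highest in both groups, and the groups overlapped almost wholly, with a log2 fold change of 0.33 (95% interval -0.51 to 1.17, edgeR adjusted p = 0.815). Junb (ENSMUSG00000052837), a Jun protein that can restrain Jun, was at 33.7, 52.1 and 27.6 CPM in RC and at 35.9, 47.7 and 44.4 CPM in RN. The highest of all 6 mice was RC replicate 2, and the log2 fold change was 0.18 (95% interval -0.34 to 0.69, edgeR adjusted p = 0.844).

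Of the EGR factors, Egr1 (ENSMUSG00000038418) is also known as Zif268 and is used as a marker of recent synaptic activity. It was at 75.04, 102.9 and 81.7 CPM in RC and at 112.6, 122.3 and 129.2 CPM in RN. The RN mice were close together and all above RC replicate 2, the highest RC mouse. The log2 fold change was 0.49 (SE 0.127, edgeR adjusted p = 0.177), with the smallest spread between mice among the 10 genes, a biological coefficient of variation of 12.7%.

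Egr2 (ENSMUSG00000037868), best known from Schwann cell myelination and also induced by activity, was at 2.30, 2.75 and 3.15 CPM in RC and at 2.62, 2.89 and 4.47 CPM in RN. These levels rest on 41 to 80 counts per mouse. Only RN replicate 3 lay above all RC mice, and without it the log2 fold change went from 0.28 (95% interval -0.39 to 0.95, edgeR adjusted p = 0.791) to 0.0114.

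Npas4 (ENSMUSG00000045903), a factor that controls inhibitory synapses and the Bdnf gene in active neurons, had the largest difference of the 10 genes. It was at 4.26, 2.81 and 1.89 CPM in RC replicates 1, 2 and 3, from 76, 47 and 33 counts. In RN it was at 8.45, 13.4 and 11.6 CPM, from 142, 250 and 208 counts. The lowest RN mouse, replicate 1, was still above RC replicate 1, the highest RC mouse. The mean ± SD over 3 mice was 2.99 ± 1.196 CPM for RC against 11.1 ± 2.50 CPM for RN, which gave a log2 fold change of 1.90 (SE 0.310, edgeR adjusted p = 0.0696). Without the filter on low counts its adjusted p was 0.0420 from edgeR, and over all alternatives it ran from 2.99e-06 in DESeq2's Wald test to 0.236 with the replicate number as a block and replicate 3 left out, so that its call depended on the test and the filter.

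Arc (ENSMUSG00000022602), whose protein removes AMPA receptors from synapses and forms capsid-like particles, was at 33.8, 40.04 and 52.2 CPM in RC and at 43.3, 38.9 and 64.3 CPM in RN. The replicate 3 mice were highest in both groups. The log2 fold change was 0.22 (95% interval -0.28 to 0.72, edgeR adjusted p = 0.785), and it was -0.03 without RN replicate 3. The interval included the fitted value of Egr1 and not that of Npas4.

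Nr4a1 (ENSMUSG00000023034), an orphan nuclear receptor also called Nur77, was at 20.4, 46.8 and 28.5 CPM in RC and at 16.3, 41.6 and 33.4 CPM in RN. It varied most between mice, with a biological coefficient of variation of 32.4%, and its log2 fold change was -0.07 (95% interval -0.93 to 0.80, edgeR adjusted p = 0.977). Ier2 (ENSMUSG00000053560), a nuclear protein induced by growth factors, was at 9.93, 11.3 and 8.25 CPM in RC and at 9.28, 14.5 and 7.72 CPM in RN. Its RN values enclosed all its RC values, with a log2 fold change of 0.10 (95% interval -0.48 to 0.68, edgeR adjusted p = 0.935).

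**Figure D2:**
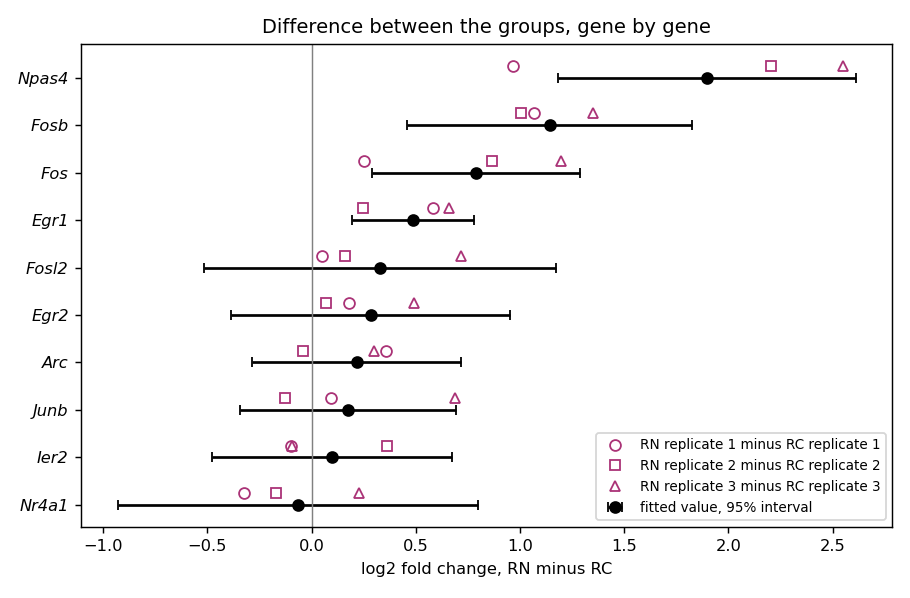
Log2 fold change of RN against RC for each gene, with black points and bars for the fitted value and its 95% interval (edgeR, 3 mice each) and open symbols for the difference between the mice of the same replicate number. The unadjusted intervals of Npas4, Fosb, Fos and Egr1 lie above 0, and those of the other 6 genes span 0.

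Levels of different genes were compared only per length, as CPM per kilobase of annotated exons (lengths from GENCODE M21, build GRCm38). On that scale the means in RC, from high to low, were 19.3 for Egr1, 16.4 for Junb, 15.5 for Fos, 13.7 for Arc, 9.09 for Nr4a1, 6.45 for Ier2, 2.59 for Fosl2, 1.14 for Fosb, 0.804 for Egr2 and 0.722 for Npas4. Neighbours in this order overlapped between mice, except Ier2 against Fosl2 and Fosl2 against Fosb. In RN the means were 27.1 for Egr1, 26.7 for Fos, 18.5 for Junb, 16.0 for Arc, 8.68 for Nr4a1, 6.91 for Ier2, 3.25 for Fosl2, 2.70 for Npas4, 2.52 for Fosb and 0.979 for Egr2. Npas4, at the bottom of the order in RC, overlapped Fosl2 and Fosb in RN. In RN the neighbours without overlap were Arc against Nr4a1, Ier2 against Fosl2 and Fosb against Egr2.

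Across all genes the deviations of same-number mice correlated weakly, at 0.173, 0.120 and 0.209 for replicates 1, 2 and 3. Pairs of unlike number ran from -0.285 to 0.156. The latter, RC replicate 1 with RN replicate 2, was above the same-number value of replicate 2. In 5 genes, namely Fosb, Fosl2, Egr2, Nr4a1 and Ier2, the 3 numbers stood in the same order in both groups, against 22.0% of all tested genes. Fosb, Fosl2 and Nr4a1 were lowest in replicate 1, intermediate in replicate 3 and highest in replicate 2 within both groups, against 3.65% of all tested genes. This order was singled out among the possible ones, so that its share is no test of a pairing. In 6 genes, namely Fos, Fosb, Fosl2, Egr1, Egr2 and Npas4, the RN mouse was above the RC mouse within all 3 numbers, against 18.6% of all tested genes. The standard error of Nr4a1 went from 0.375 to 0.130 with the number as a block and that of Fosl2 from 0.367 to 0.151, with log2 fold changes of -0.08 and 0.31. For Fosb the blocked standard error was 0.146 and the adjusted p 0.0728 from edgeR, and for Npas4 the adjusted p was 0.0968. Npas4 alone of the 10 genes had a larger standard error with the block, 0.336 against 0.310. With the block none of the 10 genes was called, where 0.147% of all tested genes were. At an unadjusted p under 0.05 the blocked test gave 4 genes higher, against 6.63%, and 0 lower, against 6.97%.

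**Figure D3:**
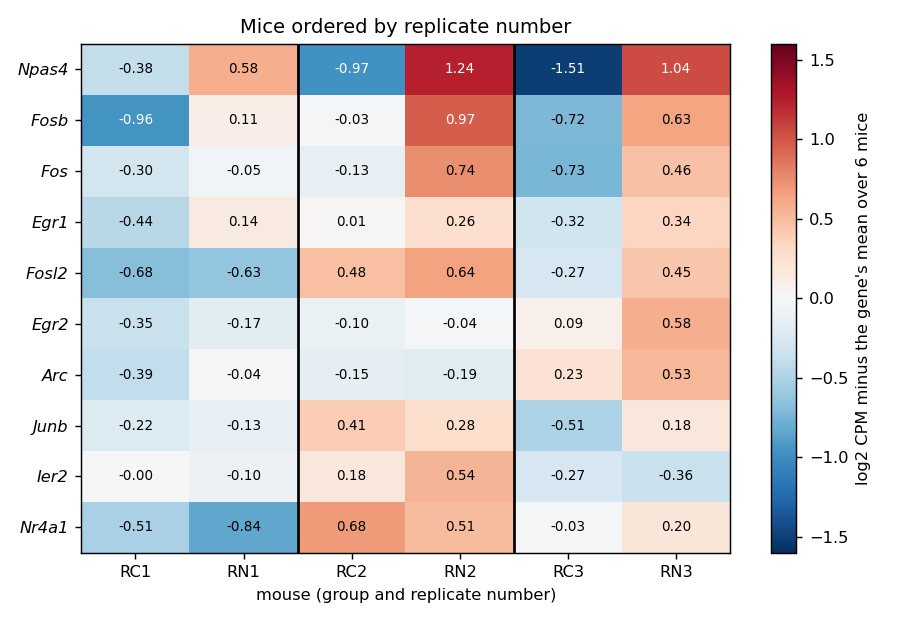
Log2 CPM of each gene minus its mean over the 6 mice, with genes ordered by fitted fold change and mice by replicate number, red above and blue below the mean. Npas4 is below its mean in all RC mice and above it in all RN mice, whereas Fosl2 and Nr4a1 are below it in both replicate 1 mice and above it in both replicate 2 mice.

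Single mice differed in how many of the genes they led. RN replicate 2 was the highest of the 6 mice in 5 genes, RN replicate 3 in 3 and RC replicate 2 in 2. RC replicate 1 was below the mean of the 6 mice in all 10 genes and the lowest mouse in 5. The median deviation of the 10 genes from that mean was 0.53 and 0.46 on the log2 scale in RN replicates 2 and 3 but -0.07 in RN replicate 1, against -0.39, -0.01 and -0.29 in RC replicates 1, 2 and 3. The medians of RN replicate 1 and RC replicate 2 were close, but single genes were not, since Fosl2 was at -0.63 in the former and 0.48 in the latter and Npas4 at 0.58 and -0.97. The genes varied more between mice than most, with a median biological coefficient of variation of 23.5% against 14.6% over all tested genes, and Egr1 alone was below the latter.

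The rest of the activity response was read from lists written with earlier results of these data known. Of 20 other early transcription regulators 19 were tested. Atf3, a stress-induced partner of Jun proteins, rose from 12.6 ± 2.42 CPM to 35.7 ± 5.79 CPM (mean ± SD, 3 mice a group), by 1.499 on the log2 scale (SE 0.179, edgeR adjusted p = 0.0419), and it was the 1 gene called. Its edgeR adjusted p was 0.0837 without RC replicate 1, 0.100 without RC replicate 2, 0.193 without RN replicate 2 and 0.132 without RN replicate 3. It stayed called without RC replicate 3 (0.0261) or without RN replicate 1 (0.0255). Over all single mice left out the log2 fold change ran from 1.41 to 1.67. Klf10, an early factor of TGF-β signalling, was at 7.52 to 8.31 CPM in RC and 13.96 to 15.4 CPM in RN, and its log2 fold change was 0.87 (edgeR adjusted p = 0.0666). Jund, an AP-1 subunit, had a log2 fold change of 0.25 (adjusted p = 0.257). Both were higher in every RN mouse, whereas Egr3, close kin of Egr1, spread from 4.82 to 21.7 CPM in RC and from 16.3 to 37.7 CPM in RN and overlapped. Over the 19 genes, 3 were higher and 0 lower without overlap, against 8.18% and 8.12% of all tested genes, and the median log2 fold change was 0.19.

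Of 15 genes for AP-1 partners 13 were tested, among them Jun, Jund, Atf3 and Maff of the preceding list. Jun, the usual partner of Fos, was at 57.7 to 78.3 CPM in RC and 72.8 to 94.6 CPM in RN with overlapping groups, a log2 fold change of 0.35 (edgeR adjusted p = 0.381). The list held 3 genes higher and 0 lower without overlap, against 8.18% and 8.12% of all tested genes, and Atf3 and Jund among them were counted in the preceding list too.

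Among 21 early genes of signalling and feedback, none was called by edgeR and 1 was called higher by DESeq2. Gadd45b, which acts in stress responses and DNA demethylation, was at 6.53 to 10.2 CPM in RC and 15.7 to 17.9 CPM in RN, and its log2 fold change was 1.03 (edgeR adjusted p = 0.0932). Rgs2, a regulator of G proteins, and Dusp4, a phosphatase that turns off MAP kinases, had log2 fold changes of 0.46 and 0.85 (both adjusted p = 0.139). Ccn1, a matrix protein induced by growth factors, was lower in each RN mouse, at 7.73 to 22.8 CPM against 24.7 to 49.1 CPM in RC. In all, 4 genes were higher and 1 lower without overlap, against 8.18% and 8.12% of all tested genes. At an unadjusted p under 0.05 there were 4 higher and 1 lower, against 5.44% and 6.33%, and the median log2 fold change was 0.05.

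Late genes follow the early factors and include secreted proteins that act at synapses. Of 12 such genes, 6 were higher in every RN mouse and 0 lower, against 8.18% and 8.12% of all tested genes, the same 6 had an unadjusted p under 0.05 (5.44% of all), and the median log2 fold change was 0.42, with none called by edgeR and 2 by DESeq2. Vgf, the precursor of neuronal peptides, was at 108.5 to 135.1 CPM in RC and 196.5 to 317.5 CPM in RN, and its log2 fold change was 1.13 (SE 0.177, edgeR adjusted p = 0.0666). Blocking on the replicate number gave an adjusted p of 0.0378, and without the block it was called with RN replicate 1 left out, at 0.0153. With the block and 1 replicate number left out, it ran from 0.0530 to 0.0857. Inhba, a subunit of activin, was at 1.14 to 4.58 CPM in RC and 5.89 to 21.0 CPM in RN, and its log2 fold change was 2.30 (adjusted p = 0.148). Scg2, a granin of secretory vesicles, had a log2 fold change of 0.70 (adjusted p = 0.150), and the other 3 genes were Bdnf, Nptx2 and Pcsk1. Vgf, Scg2 and Pcsk1 belong to dense-core vesicles and are abundant in hypothalamic neurons. The summed markers of those neurons were at 31.6 to 220.5 CPM in RC and 226.9 to 439.7 CPM in RN. Their relation to the late genes was not tested.

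The 20 genes for upstream kinases and factors, among them Creb1, Srf, Camk4 and the NMDA receptor gene Grin1, had a median log2 fold change of 0.04, with values from -0.42 for Camk2a to 0.43 for Mrtfb. None was called by edgeR or DESeq2. At an unadjusted p under 0.05 in edgeR 1 was higher, against 5.44% of all tested genes. Crtc2 alone was lower without overlap, against 8.12%. Mrtfb, a coactivator of SRF, was at 82.0 to 106.1 CPM in RC and 100.2 to 160.5 CPM in RN (edgeR adjusted p = 0.400). Crtc2, a coactivator of CREB, was at 21.2 to 23.1 CPM in RC and 19.03 to 20.5 CPM in RN (adjusted p = 0.559), and Mef2a had a log2 fold change of -0.26 (adjusted p = 0.570). Of 10 genes that glucocorticoids induce, 7 were below 0 with a median log2 fold change of -0.24. None was called by either tool. Pdk4 alone was lower in every RN mouse, at 8.39 to 12.02 CPM against 13.5 to 15.9 CPM in RC, where 8.12% of all tested genes were lower without overlap. Plin4 and Sgk1 had log2 fold changes of -0.50 and -0.55 (adjusted p = 0.575 and 0.587). Pdk4, Plin4, Sgk1 and Tsc22d3 were lower in RN within all 3 replicate numbers, and with the block these 4 had an unadjusted p under 0.05, against 6.97% of all tested genes lower. The share of all tested genes lower within all 3 numbers was not computed. The blocked adjusted p of Sgk1 was 0.0968 in edgeR.

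**Figure D4:**
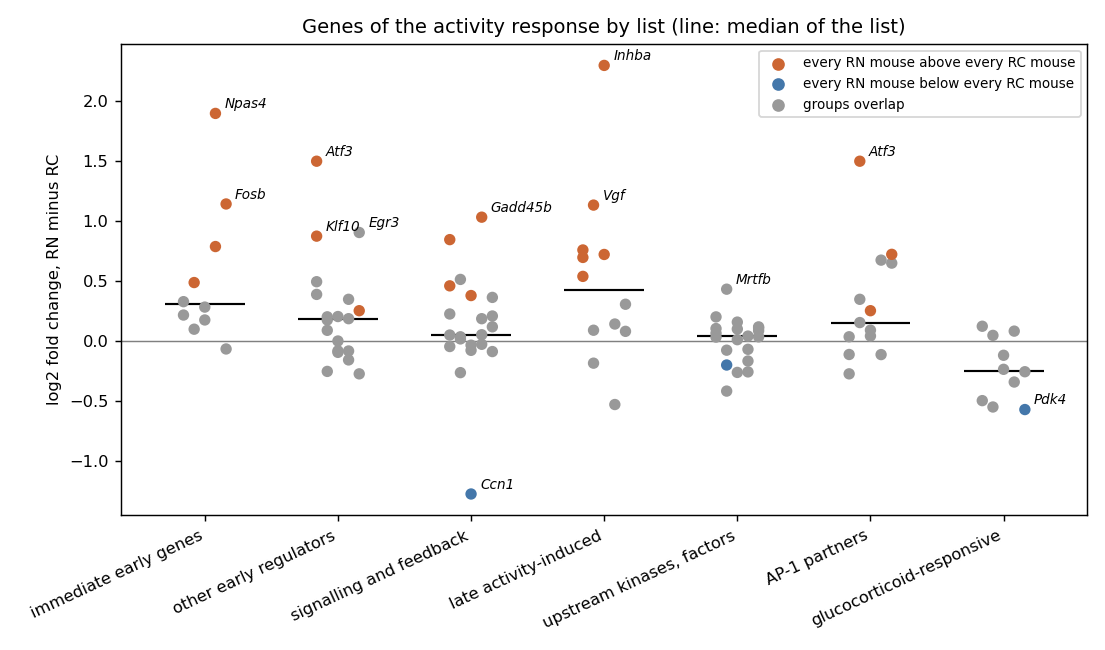
Log2 fold change of RN against RC for each tested gene of 7 lists (edgeR, 3 mice each), coloured by whether the mice of the groups overlap, with a line at each list's median. The line is at 0.31 for the immediate early genes, 0.42 for the late genes, 0.04 for the upstream genes and -0.24 for the glucocorticoid-responsive genes, and Atf3 stands in both lists that hold it.

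Markers of cell types were summed in each mouse as CPM. The 10 neuronal markers, among them Rbfox3 and Snap25, summed to 4112 to 5025 CPM in RC and 4720 to 5232 CPM in RN, overlapping, with 0 called and a median log2 fold change of 0.14. The 8 tested of 9 hypothalamic markers summed to 31.6 to 220.5 CPM in RC and 226.9 to 439.7 CPM in RN, all 8 above 0 with a median of 1.34. Those of choroid plexus, 7 of 7 tested, went the other way with 309.7 to 8257 CPM in RC and 55.4 to 132.2 CPM in RN, a median of -3.78. The 8 thalamic markers were all below 0 with a median of -0.56 and overlapping sums of 815.0 to 1721 CPM in RC and 568.7 to 1124 CPM in RN. Each of the 8 was most negative between the replicate 3 mice. The log2 differences of RN from RC in replicates 1, 2 and 3 were 0.18, -0.02 and -1.59 for Tcf7l2. They were 0.42, -0.10 and -1.89 for Prkcd and -0.06, -0.67 and -2.33 for Ramp3. The 6 habenular markers were all above 0 (58.2 to 106.0 CPM in RC, 102.7 to 152.5 CPM in RN), and the 7 tested of 8 cortical and hippocampal markers overlapped (187.9 to 364.7 and 154.1 to 276.5 CPM).

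Among glia and vessels, the 7 astrocyte markers were all below 0 with a median of -0.40 and sums of 4831 to 6114 CPM in RC and 3365 to 4410 CPM in RN. The 6 endothelial markers summed to 286.1 to 329.8 CPM in RC and 199.8 to 257.7 CPM in RN. Those of oligodendrocytes (6 genes, 11728 to 15179 and 9392 to 12864 CPM) and microglia (6 genes, 879.3 to 944.3 and 724.5 to 1002 CPM) overlapped between the groups. None of these marker genes was called by edgeR. At an unadjusted p under 0.05 in edgeR, 4 hypothalamic, 2 habenular and 1 neuronal marker (Gad2) were higher, against 5.44% of all tested genes. Lower at that limit were 7 choroid plexus, 4 astrocyte, 3 endothelial, 1 thalamic (Ramp3) and 1 oligodendrocyte marker (Mobp), against 6.33%. DESeq2 called 2 hypothalamic markers higher and 5 choroid plexus markers lower, against 97 and 80 of the 14956 genes tested by edgeR. The part of tissue composition in the values of Npas4, Fosb, Fos, Egr1, Atf3 and the late genes was not tested.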

How the data were processed

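Bulk RNA-seq of thalamus from 3 RC and 3 RN mice was analysed. The authors deposited raw counts per gene as whole numbers, 1 column per mouse, with no sign of normalization in the values. RSEM estimates fractional counts, so that rounding by the authors cannot be told from whole reads. The submitters' processing notes name fastp 0.18.0, FastQC, HISAT2, RSEM 1.2.19 and build GRCm39, without roles. The annotation, the use of strand and the treatment of shared reads are not given in the sources used here. Groups and replicate numbers came from the labels, and each sample was taken as a separate mouse, as the study describes. The p-values weigh the difference between the groups against the spread between these samples, which the tests estimate with help from all genes.

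Genes of low count were removed with filterByExpr (minimum count 10), and counts were TMM-normalized and tested with the quasi-likelihood test of edgeR 4.0.16 (legacy method, group alone, R 4.3.3), with Benjamini-Hochberg adjustment over 14956 genes. Genes were called at adjusted p below 0.05 together with a 2-fold difference. Log2 CPM used a prior count of 2. DESeq2 1.42.0 was an alternative, as were DESeq2 size factors, other filters, no fold threshold, the replicate number as a block and each mouse left out. The scripts were tested on simulated data. The replicate number was used as a block because each same-number correlation across genes was over 0.1 (0.173, 0.120 and 0.209). The unlike pair of RC replicate 1 with RN replicate 2 reached 0.156, so that this limit did not set same-number pairs apart. Whether the mice were paired is therefore open. What the numbers stand for is not stated.

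The 10 genes and the lists (7 pathway and 10 marker lists, 175 genes, all found in the counts) were chosen with earlier results of these data known. All 10 genes were described, and from each other pathway list every called gene and up to 3 genes by smallest p. 1 gene that this rule names is not reported here. Other list genes were named after their values were seen.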

Additional observations from a re-analysis of the deposited data

How the results depend on the processing

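None of the 10 immediate early genes was called under edgeR with DESeq2 size factors, with at least 10 counts in every mouse, without a fold threshold, with the replicate block, with the block and 1 replicate pair left out, without edgeR's legacy option (the last 2 chosen after seeing the data), or with any single mouse left out. DESeq2's Wald test called 2 of them, Npas4 and Fosb. It called 0.61% of its genes higher, where the report's test called 0.0735% of all genes in either direction. Without a filter on low counts edgeR called 1, Npas4, and the share over all genes was not computed for that setting. Among the 93 genes of the other pathway lists, 1 was called in the report's test, 4 by DESeq2, 2 without the filter, 2 with the replicate block, and from 0 to 2 with single mice left out. The block called 0.147% of all tested genes. With single mice left out, from 3 genes (without RN replicate 2) to 30 genes (without RN replicate 1) were called among all tested. The causes were not tested. The number of immediate early genes without overlap was 4 with either scaling, where 8.18% of all tested genes were higher and 8.12% lower without overlap in the report's scaling. With a mouse left out it was 4 to 5. Fewer mice make overlap rarer for any gene, and the share over all genes was not computed there. The median log2 fold change of the 10 genes ran from 0.14 without RC replicate 1 to 0.56 without RC replicate 2.

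Npas4, Fosb, Fos and Egr1 stayed above 0 in every alternative, with log2 fold changes over single mice left out of 1.65 to 2.25, 0.92 to 1.47, 0.59 to 0.98 and 0.39 to 0.63. The sign of 4 genes turned with 1 mouse left out. Nr4a1 ran from -0.36 to 0.32, and was above 0 without RC replicate 2 (0.32) or RN replicate 1 (0.23). Ier2 ran from -0.21 to 0.28, below 0 without RN replicate 2 (-0.21) or RC replicate 3 (-0.01). Junb ran from -0.0061 without RC replicate 3 to 0.48, and Arc from -0.0315 without RN replicate 3 to 0.40. The values of Npas4 and Egr2 rest on as few as 33 and 41 counts in a mouse, and the power to detect a difference was not tested.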

Other observations

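The 5 genes whose pattern over the 6 mice was nearest to the mean of the 10 immediate early genes were Gdf10, Fblim1, Lgals3, Gusb and Olfml3. The root mean square difference of their centred log2 CPM from that mean was 0.0413, 0.0562, 0.0801, 0.0831 and 0.0929 over 6 mice. Lgals3, a lectin of activated phagocytes, was at 56.9, 81.4 and 54.1 CPM in RC replicates 1, 2 and 3 and at 79.7, 113.6 and 104.6 CPM in RN replicates 1, 2 and 3, so that RC replicate 2 was above RN replicate 1. Of the 10 genes themselves Egr1 was nearest to their mean, at 0.148, and Npas4 the farthest, at 0.783, and each gene is part of that mean. The share of all tested genes at least as close was 0.288% for Egr1, 0.762% for Fos and 1.48% for Junb. It was 11.7% for Fosl2, 12.9% for Egr2, 25.7% for Fosb and 35.3% for Ier2. For Arc it was 47.8%, for Nr4a1 61.5% and for Npas4 94.8%, so that the mean describes some of the 10 genes poorly.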
